A study of Mus musculus with 16 samples.

Results

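The 36 genes described here encode proteins that copy DNA, drive mitosis or set the entry into the cell cycle. They were taken by symbol from the deposited expression table of mouse ear skin, which lists 45777 genes, and all 36 were listed and passed the filter on low counts that left 19915 genes for testing. For description they were divided by role into 15 replication genes, 19 mitosis genes and 2 regulators of the G1 phase, which precedes replication. The lowest count of any of the 36 in any library was 333 reads, so none sat near the detection floor of 3 counts.

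RNA was sequenced from the ears of C57BL/6 wild-type mice painted on both ears with MC903, and the comparison set 3 libraries of mice that also received an anti-OSM antibody, raised against oncostatin M, beside 3 of mice that received an anti-Ly6G antibody. MC903, or calcipotriol, is a vitamin D analogue whose use on mouse skin models atopic dermatitis. Both groups received it at 50 µM in 20 µL of ethanol daily for 10 days. The series text also names ovalbumin, the protocol of these groups does not, and whether these mice received it is not settled. Oncostatin M is a cytokine of the interleukin-6 family, and anti-OSM was injected into the skin at 20 µg per mouse every other day. Ly6G is a surface protein of mouse neutrophils. Each dose of anti-Ly6G was 200 µg per mouse by the intraperitoneal route, 2 days ahead of MC903 and again on days 1 and 4 after it. The groups thus differ in antibody, dose, route and timing at once. No isotype antibody, age, sex, collection day or library batch is given for these groups. The labels also describe 5 control and 5 MC903-only libraries, which were not analysed here, so whether proliferation genes were high or low against untreated skin was not tested. Total counts were 52163179 to 59063578 in the anti-OSM libraries and 59381146 to 64122588 in the anti-Ly6G libraries.

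In skin, dividing cells sit mainly in the basal layer of the epidermis and in the hair follicle, and inflamed epidermis is known to thicken through faster keratinocyte division. Cyclin D with its kinases and then cyclin E with CDK2 release E2F transcription factors from RB, and E2F proteins switch on genes for loading the MCM helicase, for nucleotide supply and for replication. Later in the cycle, the MuvB complex with B-MYB and FOXM1 switches on mitotic genes, many of which carry a CHR element (cell cycle genes homology region) and CCAAT boxes, the sites of NF-Y, in their promoters. In whole skin, fewer dividing cells and less RNA per dividing cell cannot be told apart.

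Promoter sequences of 4 genes show what such matches look like. They are the mitotic topoisomerase gene Top2a, the mitotic kinase gene Plk1, Cdk1, the kinase that drives entry into mitosis, and Mcm6, a subunit of the replicative helicase. Top2a and Plk1 are the mitosis genes that differed between the antibody groups, and Cdk1 and Mcm6 are shown for their CHR and E2F matches. Each line holds the 250 bases before the annotated start in RefSeq's GRCm38.p6 table, 5′ to 3′ on the gene's strand, and capitals mark matches on either strand to the CHR (TTTGAA or TTCGAA), to E2F (TTTCCCGC or TTTGGCGC) or to CCAAT. The windows are chr11:99024190-99024439 on the minus strand for Top2a, chr7:122159185-122159434 on the plus strand for Plk1, chr10:69352913-69353162 on the minus strand for Cdk1 and chr1:128359706-128359955 on the minus strand for Mcm6. The last 10 bases of the Top2a window lie inside the gene as annotated, which has a start further upstream.
Top2a: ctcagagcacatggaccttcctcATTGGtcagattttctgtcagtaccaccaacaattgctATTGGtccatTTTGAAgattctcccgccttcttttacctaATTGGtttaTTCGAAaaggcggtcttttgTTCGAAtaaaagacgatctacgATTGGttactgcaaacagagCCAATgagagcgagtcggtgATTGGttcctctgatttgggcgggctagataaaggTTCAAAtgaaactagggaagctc
Plk1: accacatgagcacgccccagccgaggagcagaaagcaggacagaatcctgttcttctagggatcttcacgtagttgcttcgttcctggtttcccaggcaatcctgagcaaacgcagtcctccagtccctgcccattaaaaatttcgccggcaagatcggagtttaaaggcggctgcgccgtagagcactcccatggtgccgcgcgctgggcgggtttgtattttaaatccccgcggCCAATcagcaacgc
Cdk1: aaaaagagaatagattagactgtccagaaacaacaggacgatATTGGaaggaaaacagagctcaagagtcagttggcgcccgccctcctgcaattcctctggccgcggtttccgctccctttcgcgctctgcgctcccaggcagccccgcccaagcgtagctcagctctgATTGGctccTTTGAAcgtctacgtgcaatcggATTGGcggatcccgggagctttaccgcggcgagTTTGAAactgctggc
Mcm6: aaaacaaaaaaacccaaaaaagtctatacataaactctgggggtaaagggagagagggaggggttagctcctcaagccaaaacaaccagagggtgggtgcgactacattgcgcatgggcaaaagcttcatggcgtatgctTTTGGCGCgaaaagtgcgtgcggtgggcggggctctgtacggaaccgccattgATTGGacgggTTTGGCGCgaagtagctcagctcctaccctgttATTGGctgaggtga

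In these 250 bases Top2a had 4 CHR matches and 6 CCAAT matches, Cdk1 had 2 and 3, and Plk1 had 1 CCAAT match, with 1 CHR match lying after its start. Mcm6 had 2 E2F and 2 CCAAT matches and no CHR match. The table held a window for 29 of the 36 genes, among them 15 mitosis and 13 replication genes. In the whole window, which ends 50 bases past the start, a CHR match stood in 12 of 15 mitosis genes (80%), in 2 of 13 replication genes (15.4%) and in 21.7% of all 27025 genes with a window. A gene with more than 1 window counted if any of them held the match. Some windows counted here lie inside the gene as annotated. The start used lay 466 bases inside E2f1, 442 inside Cdc6 and 316 inside Aurka, so their windows fall wholly within the gene. For Mcm7 the starts of its windows lay 228 and 845 bases inside. An E2F match stood in 0 of 15 mitosis genes, in 6 of 13 replication genes (46.2%) and in 1.80% of all genes with a window. CCAAT stood in 14 of 15 mitosis genes (93.3%), in 8 of 13 replication genes (61.5%) and in 41.1% of all genes with a window. In the 250 bases alone a CHR match stood in 7 of 15 mitosis genes (46.7%), 2 of 13 replication genes (15.4%) and 19.6% of all genes with a window, and an E2F match in 0 of 15, 4 of 13 (30.8%) and 1.51%. The motifs were searched separately and overlaps between them were allowed. Only the 2 E2F strings given above were searched, so the 0 for mitosis genes holds for those strings alone. Other E2F-like strings, such as TTTCGCGC in the Cdk1 line, were neither marked nor counted. A match is a run of letters and not a measured binding site.

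Transcript levels per unit length spanned the list widely. The mean TPM over the 6 libraries, a measure corrected for transcript length, was highest for Cdkn1a at 208, which encodes the CDK inhibitor p21, and for Pcna at 186, which encodes the sliding clamp of DNA polymerases. Top2a at 68.6 TPM, Mcm6 at 58.9 and Rrm1 at 56.3 followed. Mki67, which encodes the proliferation antigen Ki-67, averaged 47.6 TPM. Only Cdkn1a and Pcna lay over 100 TPM. Under 10 TPM lay Ccne1, Cenpe, Cenpf, Bub1, Ccne2 and, lowest of the 36, the licensing factor gene Cdc6 at 3.4 TPM.

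Relative to anti-Ly6G, skin of anti-OSM mice had more E2f1 transcript and less Top2a, Plk1 and Cdkn1a, and the other 32 genes did not pass the test. The changes were small: 0.50 log2 units up for E2f1 and 0.34 to 0.47 log2 units down for the other 3. With edgeR's quasi-likelihood test and Benjamini-Hochberg adjustment over all genes tested, 4 of 36 genes (11.1%) had an adjusted p under 0.05, and the same threshold called 12.1% of all 19915 genes. By direction, 1 was higher and 3 lower, against 5.81% of all genes called higher and 6.27% called lower. The share of cell cycle genes called was thus near that of all genes. For reading the counts of single lists, an unadjusted p under 0.05 was found for 29.0% of all genes (14.7% higher and 14.4% lower), and DESeq2 called 19.2% of the genes it tested (9.17% higher and 10.0% lower). The median log2 fold change was -0.10 over the 36 and 0.01 over all genes tested, and 23 of the 36 had a negative value.

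**Figure D1:**
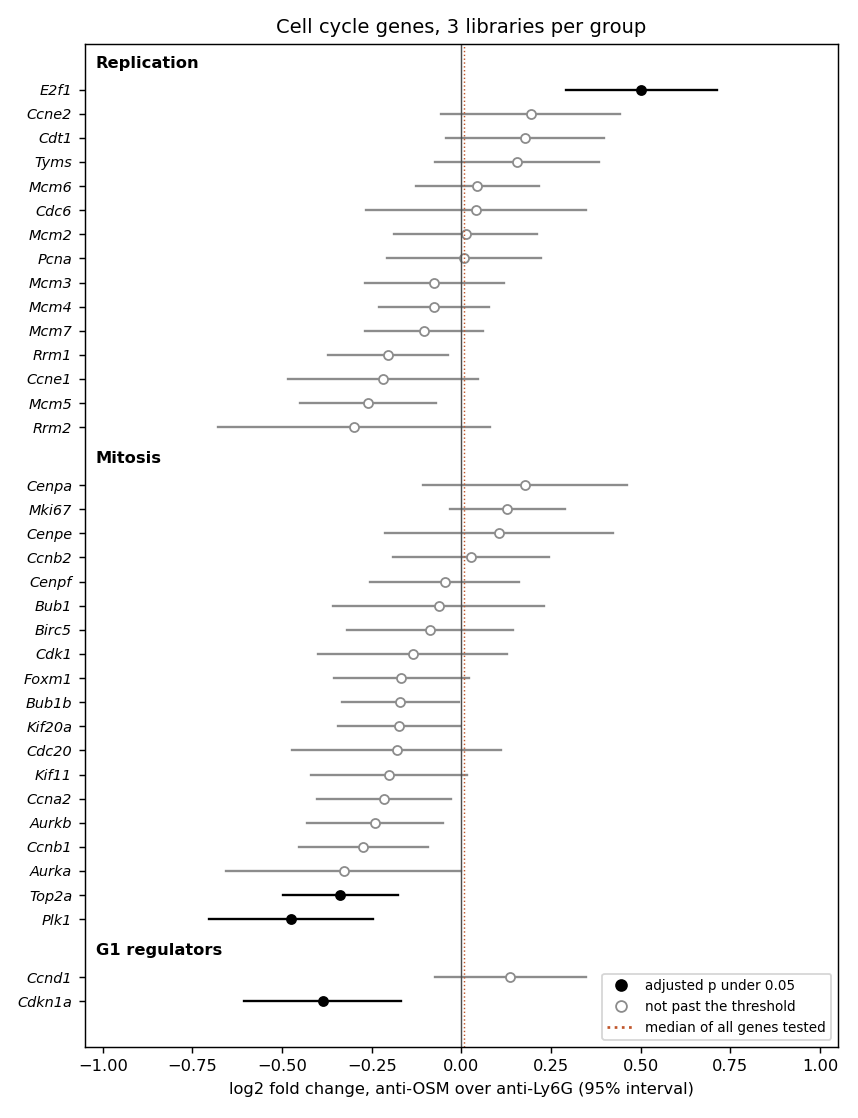
Log2 fold change of anti-OSM over anti-Ly6G (x axis) for each of the 36 genes (rows, by role), with the 95% interval from edgeR as a line. E2f1 at 0.50 is the only filled point to the right, and Cdkn1a, Top2a and Plk1 are the filled points to the left; the dotted line is the median of all genes tested, 0.01.

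Most of the intervals were narrow. For 31 of the 36 genes (86.1%) the 95% interval of the difference lay within a 1.5-fold change either way, against 55.9% of all genes tested and 80.2% of the 12048 genes with a mean CPM at or above that of the lowest of the 36. CPM here is the count relative to the TMM-scaled library size.

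E2f1 encodes a transcription factor that turns on replication genes. It lies on chromosome 2 from 154559400 to 154569892 (GRCm38.p6, gene ID 13555). E2f1 had 18.3, 20.4 and 21.8 CPM in the anti-OSM libraries and 14.0, 13.8 and 14.9 CPM in the anti-Ly6G libraries. Every anti-OSM library was above every anti-Ly6G library. Its log2 fold change was 0.50 (SE 0.09, edgeR adjusted p = 0.0142). It no longer passed when anti-OSM replicate 2, anti-OSM replicate 3 or anti-Ly6G replicate 1 was left out, with adjusted p of 0.0523 to 0.0613. The annotation has Necab3 overlapping E2f1, and Necab3 averaged 1.19 ± 0.21 CPM with anti-OSM and 1.27 ± 0.23 CPM with anti-Ly6G (SD, n = 3 each).

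The rest of the replication genes did not pass the test in either direction. Of the 15, edgeR called 1 higher and 0 lower (6.67%, against 12.1% of all genes), with an unadjusted p under 0.05 for 1 higher and 2 lower (all genes, 29.0%). DESeq2 called 1 higher and 1 lower, and limma-voom 1 and 0. The median log2 fold change was 0.01, with 8 genes positive and 7 negative. That sign is not stable: without the filter on low counts the median was -0.003, and it was also negative without anti-OSM replicate 2 (-0.05) or 3 (-0.03) or without anti-Ly6G replicate 2 (-0.09) or 3 (-0.04).

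Mcm2 to Mcm7 encode the 6 subunits of the replicative helicase, and their products act as 1 ring. Their log2 fold changes ran from -0.26 for Mcm5 to 0.04 for Mcm6, with a median of -0.08, and all 6 intervals lay within 1.5-fold. Mcm5 had 46.9, 55.9 and 53.1 CPM in the anti-OSM libraries and 66.7, 60.1 and 59.9 CPM in the anti-Ly6G libraries. Its groups did not overlap, and its adjusted p was 0.0782 in edgeR and 0.0427 in DESeq2. The summed TPM of the 6 was 206.5 to 236.1 in anti-OSM skin and 234.7 to 238.3 in anti-Ly6G skin, so the groups overlapped.

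The licensing factors Cdc6 and Cdt1, which load that helicase onto DNA, had log2 fold changes of 0.04 (95% interval -0.27 to 0.35) and 0.18 (-0.04 to 0.40). Pcna differed by 0.01 (-0.21 to 0.22), with 113 ± 4.46 CPM in anti-OSM skin and 112 ± 14.3 CPM in anti-Ly6G skin (SD, n = 3 each). Among the genes of nucleotide supply, Rrm1 and Rrm2 encode the subunits of ribonucleotide reductase and Tyms encodes thymidylate synthase. Rrm1 had 91.2, 105 and 105 CPM with anti-OSM and 116, 113 and 118 CPM with anti-Ly6G, a difference without overlap at an edgeR adjusted p of 0.106. Rrm2 ranged from 32.0 to 41.8 CPM in anti-OSM skin and from 36.7 to 56.1 CPM in anti-Ly6G skin, and its interval was the widest of the 36 (-0.68 to 0.08). Tyms had a log2 fold change of 0.15 (-0.07 to 0.38).

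Ccne1 and Ccne2 encode the E cyclins of the G1 to S transition. Ccne1 averaged 6.63 ± 0.31 CPM with anti-OSM and 7.72 ± 0.85 CPM with anti-Ly6G, and Ccne2 10.7 ± 1.2 and 9.34 ± 0.44 CPM (SD, n = 3 each). Their log2 fold changes were -0.22 and 0.19, neither of which passed the test (edgeR adjusted p = 0.256 and 0.285). The CPM ratio of Ccne2 to Ccne1 was 1.48 to 1.78 in anti-OSM skin and 1.15 to 1.31 in anti-Ly6G skin. That ratio was chosen after the values were seen and is given without a test.

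**Figure D2:**
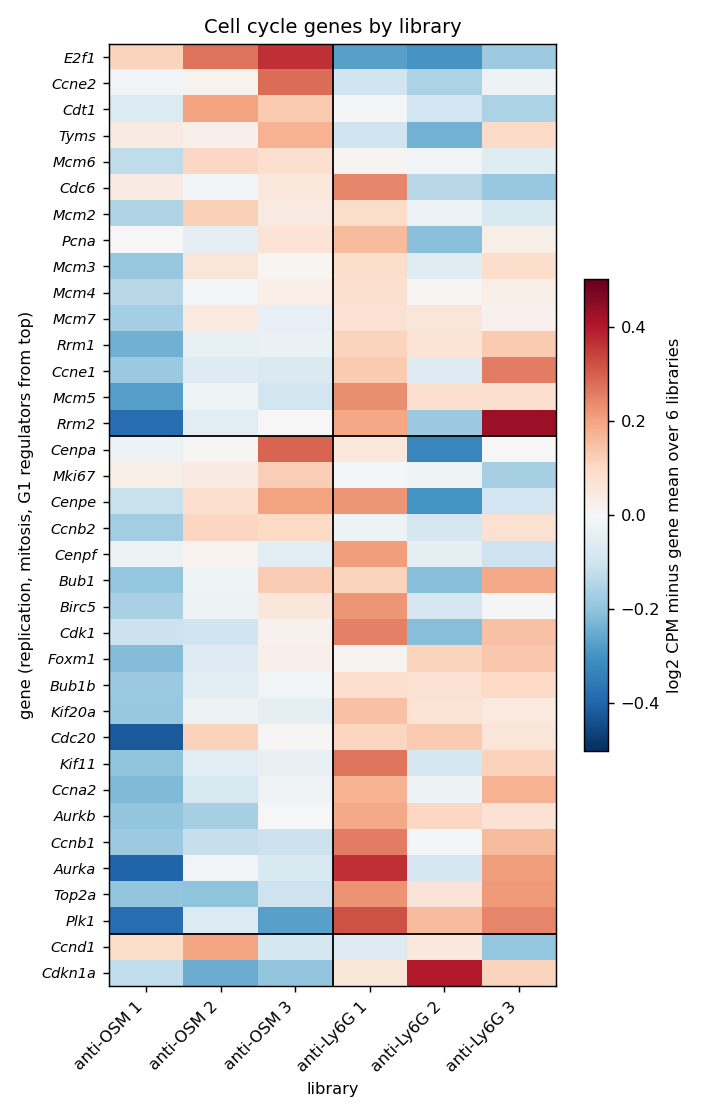
Log2 CPM of each gene minus its mean over the 6 libraries (colour), for the 36 genes (rows, replication, mitosis and G1 regulators from the top, each ordered by fold change) and the anti-OSM and anti-Ly6G libraries (columns). E2f1 is above its mean in all 3 anti-OSM libraries, and most of the lower mitosis rows are below their mean there, most of all in anti-OSM replicate 1.

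Among the 19 mitosis genes, Top2a and Plk1 were lower in anti-OSM than in anti-Ly6G skin and none was called higher. Here edgeR called 0 higher and 2 lower (10.5%, against 12.1% of all genes), with an unadjusted p under 0.05 for 0 higher and 8 lower (all genes, 14.7% higher and 14.4% lower). DESeq2 called 0 higher and 3 lower and limma-voom 0 and 2. The median log2 fold change was -0.17, with 15 genes negative and 4 positive, and under every alternative and every left-out library the median stayed negative (-0.21 to -0.11). Groups did not overlap for 7 of the 19, with Top2a, Plk1, Ccnb1, Aurkb, Bub1b and Kif20a lower and Mki67 higher. Over all 36 genes that count was 12, 3 higher and 9 lower, or 33.3%, against 35.0% of all genes tested (17.7% higher and 17.3% lower). Among the 12048 genes with a mean CPM at or above that of the lowest of the 36, the share was 40.9%.

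Top2a encodes topoisomerase II alpha, which untangles sister chromatids, and lies on chromosome 11 from 98992947 to 99024199 (GRCm38.p6, gene ID 21973). Top2a had 149, 148 and 159 CPM in the anti-OSM libraries and 199, 178 and 198 CPM in the anti-Ly6G libraries. The groups did not overlap. Its log2 fold change was -0.34 (SE 0.07, edgeR adjusted p = 0.0210), and the call was lost without any 1 of the anti-OSM libraries or without anti-Ly6G replicate 1, with adjusted p of 0.0574 to 0.0813.

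Plk1 encodes polo-like kinase 1, which acts in spindle assembly and cytokinesis, and lies on chromosome 7 from 122159435 to 122169884 (GRCm38.p6, gene ID 18817). Plk1 had 15.1, 18.7 and 16.3 CPM in the anti-OSM libraries and 24.5, 21.9 and 23.2 CPM in the anti-Ly6G libraries. Again every anti-OSM library was below every anti-Ly6G library. The log2 fold change of Plk1 was -0.47 (SE 0.10, edgeR adjusted p = 0.0218), and it no longer passed when anti-OSM replicate 1, anti-OSM replicate 3 or anti-Ly6G replicate 1 was left out, with adjusted p of 0.0725 to 0.0830.

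Mki67 values ran the other way from those of Top2a without passing the test. Mki67 had 232, 234 and 248 CPM in the anti-OSM libraries and 227, 224 and 203 CPM in the anti-Ly6G libraries. The groups did not overlap and the anti-OSM libraries were the higher ones, at a log2 fold change of 0.13 (95% interval -0.03 to 0.29, edgeR adjusted p = 0.270). The intervals of Mki67 and Top2a did not meet, but this pair was picked after the values were seen and its difference was not tested. The CPM ratio of Mki67 to Top2a was 1.56 to 1.58 in anti-OSM skin and 1.03 to 1.26 in anti-Ly6G skin, a ratio chosen after the values were seen and not tested.

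**Figure D3:**
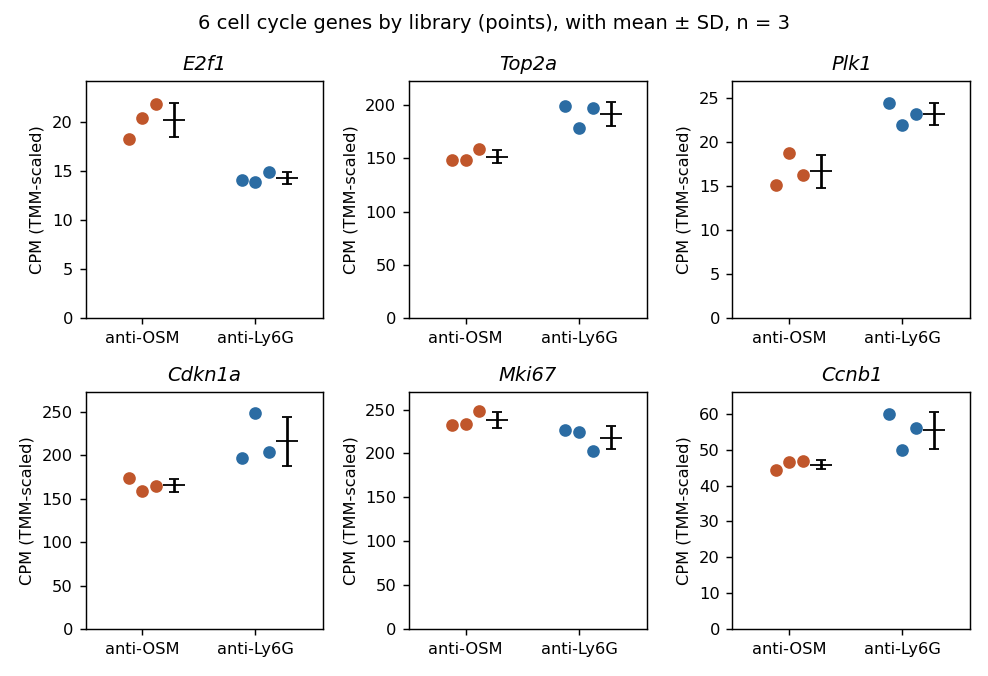
CPM (y axis, from 0) of 6 genes in each anti-OSM and anti-Ly6G library (points), with the group mean ± SD (n = 3) beside them. E2f1 and Mki67 points lie higher with anti-OSM, and Top2a, Plk1, Cdkn1a and Ccnb1 points lie lower, with no overlap between groups in any of the 6 panels; Mki67 and Ccnb1 did not pass the test.

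The mitotic cyclins and their kinase varied. Ccnb1, which encodes cyclin B1, had 44.4, 46.5 and 46.7 CPM in the anti-OSM libraries and 60.1, 50.0 and 56.1 CPM in the anti-Ly6G libraries. Its groups did not overlap, and its log2 fold change was -0.27 with an edgeR adjusted p of 0.0598, 0.0339 without anti-Ly6G replicate 2 and 0.0237 in DESeq2. Ccnb2, for cyclin B2, differed by 0.03 (95% interval -0.19 to 0.25). The TPM ratio of Ccnb1 to Ccnb2 was 0.977 to 1.14 in anti-OSM skin and 1.20 to 1.39 in anti-Ly6G skin, again chosen after the values were seen. Ccna2, for cyclin A2, had a log2 fold change of -0.22 (edgeR adjusted p = 0.125) and Cdk1 of -0.14 (adjusted p = 0.481).

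The product of Aurka acts at the spindle poles, and that of Aurkb at the centromere together with survivin, the product of Birc5. Aurkb had 20.8 to 23.8 CPM in anti-OSM skin and 25 to 27.1 CPM in anti-Ly6G skin, and no value of one group fell within the other, at a log2 fold change of -0.24 (edgeR adjusted p = 0.0969). Aurka ranged from 9.38 to 12.3 CPM in anti-OSM skin and from 11.7 to 15.9 CPM in anti-Ly6G skin, at -0.33 (adjusted p = 0.172). Birc5 differed by -0.09 (95% interval -0.32 to 0.14).

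Spindle checkpoint and anaphase genes had negative values that did not pass the test. Bub1b and Bub1, checkpoint kinase genes, had log2 fold changes of -0.17 and -0.06, and Cdc20, the activator of the anaphase-promoting complex, of -0.18. Cdc20 had 24.9, 36 and 33.4 CPM in the anti-OSM libraries and 35.8, 36.4 and 34.6 CPM in the anti-Ly6G libraries, so anti-OSM replicate 1 alone stood low. The mitotic kinesin genes Kif11 and Kif20a were at -0.20 and -0.17, and Foxm1, which encodes a transcription factor of mitotic genes, at -0.17 (edgeR adjusted p = 0.162 to 0.217 for the 3). Of the centromere and kinetochore genes, Cenpa (0.18), Cenpe (0.10) and Cenpf (-0.05) had adjusted p of 0.387 to 0.774.

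Of the G1 regulators, Cdkn1a was lower in anti-OSM than in anti-Ly6G skin and Ccnd1 did not pass the test. Cdkn1a, a target of p53 whose product p21 restrains cyclin-dependent kinases, lies on chromosome 17 from 29090979 to 29100722 (GRCm38.p6, gene ID 12575). Cdkn1a had 173, 159 and 164 CPM in the anti-OSM libraries and 197, 249 and 204 CPM in the anti-Ly6G libraries. All anti-OSM values were below all anti-Ly6G values, and anti-Ly6G replicate 2 was the highest. The log2 fold change was -0.39 (SE 0.10, edgeR adjusted p = 0.0363), and the call was lost without any 1 of the anti-OSM libraries or without anti-Ly6G replicate 2, with adjusted p from just over 0.05 to 0.122. Ccnd1, which encodes cyclin D1, had 81.2 to 98.7 CPM in anti-OSM skin and 75.4 to 89.5 CPM in anti-Ly6G skin, and its log2 fold change was 0.14 (-0.07 to 0.35).

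Set against each other within a library, mitosis genes were lower relative to replication genes in anti-OSM skin. The ratio of the geometric mean CPM of the 19 mitosis genes to that of the 15 replication genes was 1.10 to 1.12 in anti-OSM skin and 1.20 to 1.25 in anti-Ly6G skin. The log2 ratio differed by -0.13, against a pooled SD of 0.02 between libraries, and no p is given for it because the genes were chosen with results of these data known. How often ratios of other gene sets would separate these groups was not tested. Summed TPM of the mitosis genes was 484 to 539 in anti-OSM skin and 551 to 589 in anti-Ly6G skin, so the groups were apart. Summed TPM of the replication genes was 533 to 576 in anti-OSM skin and 556 to 605 in anti-Ly6G skin, and there the groups overlapped. The geometric mean CPM of the mitosis genes also overlapped, at 33.2 to 38.2 in anti-OSM skin and 36.8 to 42.5 in anti-Ly6G skin.

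**Figure D4:**
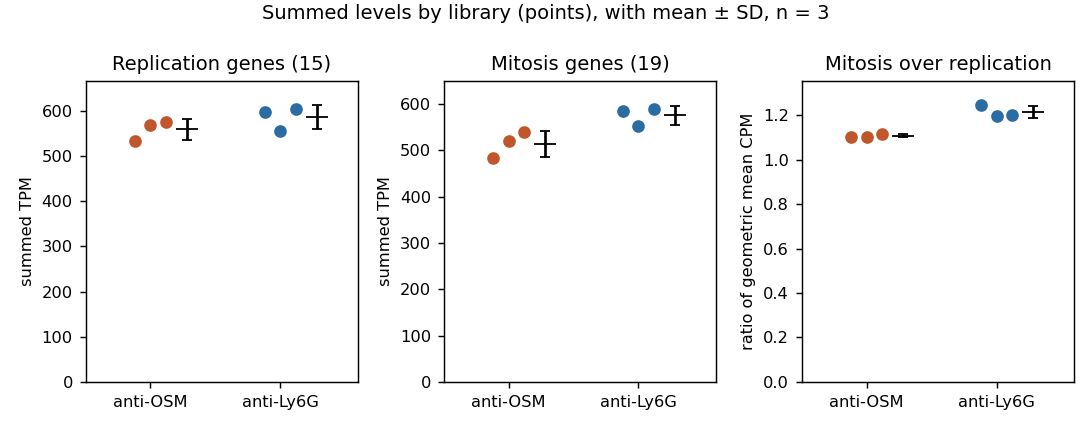
Summed TPM of the 15 replication genes (left) and the 19 mitosis genes (middle), and the ratio of the geometric mean CPM of mitosis to replication genes (right), in each anti-OSM and anti-Ly6G library (points) with mean ± SD (n = 3); all y axes start at 0. The replication sums overlap between groups, the mitosis sums are 484 to 539 for anti-OSM against 551 to 589 for anti-Ly6G, and the ratio is 1.10 to 1.12 for anti-OSM against 1.20 to 1.25 for anti-Ly6G.

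Other genes of the same pathways were listed by function. Among 48 further replication genes, edgeR called 0 higher and 3 lower (6.25%, against 12.1% of all genes), with an unadjusted p under 0.05 for 3 higher and 4 lower (all genes, 29.0%). DESeq2 called 0 and 4 and limma-voom 0 and 3. The 3 were Pold2 (-0.40) and Pole (-0.37), for DNA polymerase subunits, and Ticrr (-0.40), for a factor of origin firing. With no filter on low counts Ticrr did not pass (edgeR adjusted p = 0.0501). The list's median was 0.01, with 24 genes positive and 24 negative. The next smallest p belonged to Dnmt1, the maintenance DNA methyltransferase gene (-0.25, edgeR adjusted p = 0.0880).

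Among 70 further mitosis genes, edgeR called 0 higher and 3 lower (4.29%, against 12.1% of all genes), with an unadjusted p under 0.05 for 0 higher and 21 lower (all genes, 14.7% higher and 14.4% lower). DESeq2 called 0 and 12 and limma-voom 0 and 3. Anln, for the contractile ring protein anillin, had a log2 fold change of -0.34, Kif14, a kinesin gene of cytokinesis, of -0.41, and the condensin gene Ncapd2 of -0.27. Ncapd2 did not pass with no filter on low counts (edgeR adjusted p = 0.0531). Incenp, for a partner of Aurora B, followed at -0.28 (edgeR adjusted p = 0.0542). The list's median was -0.11, with 57 genes negative and 13 positive, against 48.9% negative over all genes tested. Groups did not overlap for 21 of the 70 (30%), all lower. Of all genes tested, 17.3% were lower without overlap, and 35.0% were without overlap when both directions are counted.

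Of 43 cyclin, CDK, inhibitor and E2F/RB genes, edgeR called 2 higher and 4 lower with anti-OSM (14.0%, against 12.1% of all genes). The list's median was 0.01, and E2f7 had the largest log2 fold change of any gene in these lists. This gene, which encodes a repressor of E2F targets such as E2f1, had 9.42, 12.2 and 9.88 CPM in the anti-OSM libraries and 32.8, 30.8 and 27.1 CPM in the anti-Ly6G libraries. The groups stood far apart, with a log2 fold change of -1.53 (SE 0.12, edgeR adjusted p = 0.000985). Cdk6, for a G1 kinase partner of cyclin D, had 109, 122 and 116 CPM with anti-OSM and 189, 166 and 187 CPM with anti-Ly6G, at -0.64 (SE 0.08, adjusted p = 0.00365). Both calls held without any 1 library. Myc (-0.39), a growth-promoting transcription factor gene, and E2f4 (-0.25), for a mainly repressive E2F, were also lower with anti-OSM. Wee1 (0.64), for the kinase that inhibits CDK1, and Rb1 (0.30), for the E2F-binding protein RB, were higher.

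Of 30 genes listed as other p53 targets, a list that also holds the p53 gene itself, edgeR called 3 higher and 4 lower. That was 23.3%, against 12.1% of all genes, and the list's median was -0.04. The lower ones were Sesn2 (-0.70, edgeR adjusted p = 0.00615), for a stress-response sestrin, and Phlda3 (-0.51, adjusted p = 0.00585), for an inhibitor of AKT. Aen (-0.50), for an apoptotic nuclease, and Sfn (-0.53), for the keratinocyte protein stratifin, were lower too. The calls of Sesn2 and Phlda3 held without any 1 library. The higher ones were Fas (0.42), for a death receptor, Trp53inp1 (0.37), for a stress-induced p53 partner, and Dcxr (0.39), for a sugar reductase.

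Of 21 genes of DNA repair in S phase, edgeR called 0 higher and 1 lower (4.76%, against 12.1% of all genes), with an unadjusted p under 0.05 for 0 higher and 2 lower (all genes, 29.0%). DESeq2 called 0 and 2 and limma-voom 0 and 1. The gene was Fancd2, of the Fanconi anaemia pathway (-0.36, edgeR adjusted p = 0.0399). Next by p came Bard1, for the partner of BRCA1 (-0.38, adjusted p = 0.0556), and Rad18, a ubiquitin ligase gene (-0.19, adjusted p = 0.173). The list's median was -0.05. Of the 20 genes of these 5 lists that passed the test, 16 lost the call without at least 1 library, and E2f7, Cdk6, Sesn2 and Phlda3 did not.

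**Figure D5:**
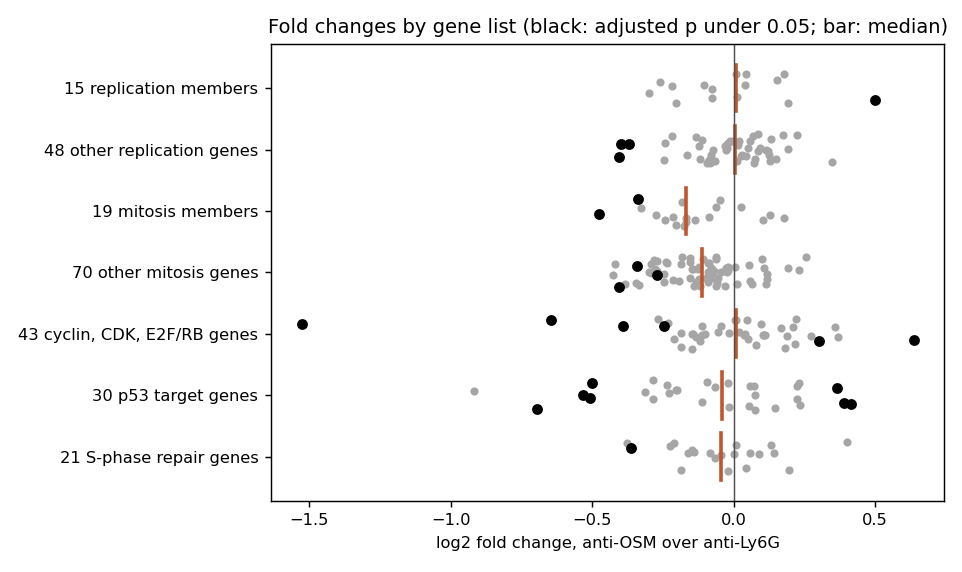
Log2 fold change of anti-OSM over anti-Ly6G (x axis) for each gene (point) of 7 lists (rows), with black points for an edgeR adjusted p under 0.05 and a bar at the list's median. The mitosis medians are -0.17 and -0.11 and the replication medians 0.01 and 0.01; E2f7 is the black point at -1.53.

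Markers of many other cells moved between the same groups, while some marker lists did not. The summed level of 7 basal keratinocyte markers was 9830 to 12275 CPM in anti-OSM skin and 14395 to 15151 CPM in anti-Ly6G skin, and 3 of the 7 were called lower, Krt14 (-0.55), Itga6 (-0.45) and Itgb4 (-0.58). Hair matrix and follicle markers summed to 154 to 182 CPM in anti-OSM skin and 421 to 783 CPM in anti-Ly6G skin. Tchh, a gene of the inner root sheath, carried most of that sum, and without it the sums were 66.1 to 71.9 CPM in anti-OSM skin and 71.4 to 149 CPM in anti-Ly6G skin and overlapped. Krt25, Krt27 and Krt71 were high in anti-Ly6G replicate 1. Activated keratinocyte markers summed to 2212 to 4308 CPM in anti-OSM skin and 6150 to 9384 CPM in anti-Ly6G skin. T cell markers summed to 71.4 to 81.3 CPM in anti-OSM skin and 40.5 to 60.5 CPM in anti-Ly6G skin, and macrophage and monocyte markers to 1608 to 2194 CPM and 973 to 1432 CPM. No marker of the 17 lists was at 0 in every library, and of the members tested edgeR called 2 of 10 hair markers and 4 of 6 activated keratinocyte markers lower, and 2 of 7 T cell and 4 of 8 macrophage markers higher. It also called 5 of 5 skeletal muscle and 3 of 5 cartilage markers lower, and 5 of 7 dendritic cell, 4 of 6 mast cell, 3 of 6 fibroblast and 2 of 4 eosinophil markers higher. For reading these counts, edgeR called 5.81% of all genes tested higher and 6.27% lower. Muscle markers summed to 1473 to 1799 CPM in anti-OSM skin and 2432 to 2639 CPM in anti-Ly6G skin, and fibroblast markers to 9277 to 9625 CPM in anti-OSM skin and 5558 to 8058 CPM in anti-Ly6G skin. B cell markers were called higher for 2 of 4 and sebocyte markers lower for 1 of 5. Of 6 neutrophil, 5 endothelial and 5 erythroid markers tested, 0 were called. Neutrophil marker sums overlapped, at 155 to 178 CPM in anti-OSM skin and 101 to 169 CPM in anti-Ly6G skin. Suprabasal keratinocyte sums overlapped too (13774.1 to 15962.5 and 12954.8 to 19969 CPM), with 1 of 6 markers called higher and 5 of 6 positive. The part of these marker shifts in the cell cycle values was not tested. The first principal component of all genes, with 43.6% of the variance, separated the groups, with anti-Ly6G replicate 3 (14.9) nearest to the anti-OSM libraries (-34.7 to -26.6).

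For 9 of the 36 genes the annotation has another protein-coding gene overlapping, and the sources used here do not say whether reads were assigned by strand, so their counts are uncertain to that extent. Apart from E2f1 these are Mcm7, Ccne2, Ccna2, Cdc20, Aurka, Kif20a, Foxm1 and Ccnd1. Aurka overlaps Cstf1, which had a log2 fold change of -0.18 itself. Listed pseudogene copies were low: Ccnb1-ps averaged 0.816 CPM with anti-OSM and 0.996 CPM with anti-Ly6G, and Pcna-ps2 4.55 and 4.18 CPM. Neither overlap nor listed copy was found for Plk1 and Cdkn1a, and Top2a overlaps only a small nucleolar RNA.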

How the data were processed

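PolyA RNA of mouse ear skin was sequenced. Per the file headers, the deposited table gives 3 values per gene and library, namely read count, FPKM and TPM. The deposited counts were tested. The TPM values, made by the authors, were used for levels between genes, and the authors' FPKM values only to check the columns. Per the submitters' processing notes, the tools included HISAT2 2.1.0, edgeR 3.40.2 and StringTie 2.1.3b without naming their roles, and the counting rule is not stated in the sources used here.

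The 6 libraries were fitted with edgeR 4.0.16 in R 4.3.3 (filterByExpr, TMM scaling, robust quasi-likelihood test, 2-sided, no covariate), with Benjamini-Hochberg adjustment over all 19915 genes at 0.05. Fold changes are on the log2 scale, anti-OSM over anti-Ly6G, and intervals are 95% intervals. Replicate numbers did not pair the libraries and no block was used. Nothing in the labels says that each library is a different mouse, so the p-values reflect only library-to-library spread, which may be technical. Within groups, libraries differed by more than counting noise, and none was counted as a duplicate. At the depths given, 3 counts equal 0.0465 to 0.0565 CPM, a floor that covers counting error only.

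The 36 genes and the lists were chosen with earlier results of these data known. Named genes are the 36, up to 4 genes of smallest p in each pathway list, and any called gene of the cyclin and p53 lists, except 1 gene that is not reported here; marker genes and overlapping genes are named beside results. Alternatives were other scalings, filters, DESeq2 1.42.0, limma-voom (limma 3.58.1), a non-robust fit, a replicate block and leaving out each library. The procedure was tested on simulated data, where it recovered 60% of 50 genes changed 1.5-fold and 80% of 50 changed 2-fold. Of its 178 calls there, 7.30% were false.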

Additional observations from a re-analysis of the deposited data

How the results depend on the processing

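Leaving out 1 library at a time, whatever the library, gave 240 to 1545 genes called higher and 420 to 1447 called lower over all genes, and 0 to 1 of the 36 cell cycle genes higher and 0 to 3 lower. Replication genes called higher numbered 0 to 1 and mitosis genes called lower 0 to 3 in these fits, and G1 regulators called lower 0 to 1. The replication median ran from -0.0876 to 0.0569 and the mitosis median from -0.21 to -0.11. The medians of the other replication genes and of the cyclin, CDK and E2F/RB genes, both 0.01, were likewise negative with no filter on low counts (-0.00462 and -0.00135). The named calls lost without 1 library stand beside the genes, or as a count. Without anti-OSM replicate 1 only E2f1 of the 36 was called, without anti-OSM replicate 2 only Plk1, without anti-OSM replicate 3 none by edgeR (unadjusted p under 0.05 for 1 higher and 10 lower), and without anti-Ly6G replicate 1 only Cdkn1a. The share of all genes called without each of these 4 libraries was 3.45% to 5.30%. Without anti-Ly6G replicate 2, E2f1, Plk1, Top2a and Ccnb1 were called, at 6.50% of all genes, and without anti-Ly6G replicate 3 the same 4 as with all libraries, at 14.8%. The cause was not tested. DESeq2 called 5 of the 36 lower, adding Mcm5 and Ccnb1, with 1 replication gene lower, against 19.2% of all genes it tested. Signs turned without 1 library for Mcm2 (-0.0454 to 0.0858), Cdc6 (-0.0441 to 0.185), Pcna (-0.0876 to 0.0897), Ccnb2 (-0.0203 to 0.115), Bub1 (-0.174 to 0.0149), Cenpe (-0.00854 to 0.253), Cenpf (-0.112 to 0.0512) and Birc5 (-0.151 to 0.00117), none of which was called. Pcna was also negative with no filter on low counts (-0.00309); the cause was not tested. With the replicate number as a block, 1325 genes were higher and 1275 lower, and the 36 kept 1 higher and 3 lower; same-numbered libraries did not all correlate best with each other (r of 0.01, 0.04 and 0.12), so the numbers are not taken as pairs. The block also left 5 called genes of the other lists over the threshold: Pole (adjusted p = 0.0588), Ticrr (0.0678), Ncapd2 (0.0608), E2f4 (0.0534) and Fancd2 (0.0607). Of 540 values of the 36 genes under 15 alternatives, 506 kept their direction and their side of the threshold. Most of these values belong to the 32 genes that were not called. Of the 4 called genes, E2f1 and Plk1 each lost the call in 3 of the 6 fits without 1 library. Top2a and Cdkn1a each lost it in 4.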
